A study of Homo sapiens with 8 samples.

Results

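The 40 genes described here code for proteins that drive entry into mitosis, build the spindle, check and move the chromosomes and end the division. They were chosen by name, as a fixed list of gene symbols, with earlier results of these data known. All 40 symbols were present among the 26364 genes of the count table, and all 40 passed the filter on low counts that left 14201 genes for testing. The RNA came from Ishikawa cells, an established human endometrial adenocarcinoma line, and the study compared vehicle (DMSO), dexamethasone at 100 nM, 17-beta-estradiol at 10 nM and the combination of both. Stranded mRNA-seq gave 2 libraries in each of the 4 groups, and all 8 came from cells kept in hormone-depleted medium without phenol red. The sample labels give 8 h of treatment, whereas the treatment protocol gives 1 h, so the exposure time is uncertain. The labels do not say whether replicates were separate cultures, so the p-values measure only the spread between these libraries. A single cell line was used, which limits the groups as a model of endometrial tumors.

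Dexamethasone activates the glucocorticoid receptor and estradiol the estrogen receptor. Both are transcription factors, and estrogen is known as a mitogen of the endometrial epithelium, while glucocorticoids often slow proliferation. Mitotic genes are repressed early in the cell cycle and transcribed late, in G2 and M, by the MuvB core complex with B-MYB and FOXM1, and many of their promoters carry a CHR element and CCAAT boxes, which NF-Y binds. Because these transcripts peak just before division, their level in a bulk RNA sample depends on how many cells are in G2 and M. Fewer such cells and less RNA in each of them cannot be told apart in these libraries.

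The promoter architecture of the genes is shown first, because many of them, though not all, share elements that can be read without the expression data. The stretches below end at the base before the RefSeq transcription start (GRCh38.p14) and read 5′ to 3′ on the strand of the gene. Capitals mark matches to TTTGAA (the CHR) or CCAAT on either strand, so that TTCAAA and ATTGG are the same elements read from the other strand, and some matches overlap. The plus-strand stretches are CCNB2 (chr15:59105026-59105145), PLK1 (chr16:23678769-23678888), KIF20A (chr5:138178992-138179111), ESPL1 (chr12:53268179-53268298) and HMMR (chr5:163460512-163460631). The minus-strand stretches are MKI67 (chr10:128126424-128126543) and UBE2S (chr19:55407789-55407988), the latter longer so that its CCAAT match is seen.
CCNB2: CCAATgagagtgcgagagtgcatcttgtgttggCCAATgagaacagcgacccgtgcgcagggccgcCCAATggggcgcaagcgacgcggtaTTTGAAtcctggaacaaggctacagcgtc
PLK1: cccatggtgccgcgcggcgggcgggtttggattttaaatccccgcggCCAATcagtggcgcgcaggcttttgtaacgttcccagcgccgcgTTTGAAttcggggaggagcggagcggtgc
KIF20A: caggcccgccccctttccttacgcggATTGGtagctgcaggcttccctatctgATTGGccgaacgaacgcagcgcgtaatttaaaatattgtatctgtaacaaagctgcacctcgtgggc
ESPL1: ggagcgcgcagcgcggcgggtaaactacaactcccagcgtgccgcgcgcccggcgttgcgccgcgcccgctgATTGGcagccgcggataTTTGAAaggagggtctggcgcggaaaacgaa
HMMR: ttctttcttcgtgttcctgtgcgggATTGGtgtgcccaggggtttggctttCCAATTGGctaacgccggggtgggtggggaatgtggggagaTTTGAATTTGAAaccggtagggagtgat
MKI67: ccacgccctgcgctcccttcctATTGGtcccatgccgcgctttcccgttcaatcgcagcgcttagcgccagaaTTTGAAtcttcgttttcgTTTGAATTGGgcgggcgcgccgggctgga
UBE2S: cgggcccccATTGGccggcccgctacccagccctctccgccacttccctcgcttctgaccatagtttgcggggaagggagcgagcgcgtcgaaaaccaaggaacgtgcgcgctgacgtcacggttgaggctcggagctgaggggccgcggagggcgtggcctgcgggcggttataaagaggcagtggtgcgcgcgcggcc

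CCNB2 shows the arrangement most plainly, with 3 CCAAT matches followed by a CHR match close to the start. PLK1 and ESPL1 each had 1 CCAAT match and 1 CHR match in the stretch, whereas KIF20A had CCAAT matches and no TTTGAA, and UBE2S had a single CCAAT match far upstream. Of the 40 genes, 33 had a RefSeq promoter entry covering 250 bases before to 50 bases after the start. TTTGAA occurred in 22 of these 33 (66.7%) and in 18.2% of the 27305 genes with an entry. CCAAT occurred in 27 of 33 (81.8%) and in 39.7% of all genes, and 18 of the 33 had both. CENPE and KIF2C had neither. The glucocorticoid response element (GNACA and TGTNC, 3 bases apart) and the estrogen response element (GGTCA and TGACC, 3 bases apart) were searched in the same windows. Each was found in 0 of the 33, compared with 0.480% and 0.0732% of all genes, and at shares this low a count of 0 carries no information. A match describes letters in a window and does not show binding.

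The libraries held 17846211 to 22487333 counts, and the genes of interest had 381 to 16838 counts in each library. Levels are given as CPM, which is the read count relative to the scaled library size. The epithelial markers summed to 3468 to 5010 CPM in every library. Of the 5 leukocyte markers, 3 were under 1 CPM throughout, and CD3E had no count. The endothelial list summed to 7.83 to 11.4 CPM, with 2 of 5 genes under 1 CPM throughout. The fibroblast list summed to 137 to 201 CPM, of which COL1A1 made up 123 to 185, and 3 of its 6 genes were under 1 CPM throughout; the part of these markers in the results was not tested. The hormones were active in these cells: the glucocorticoid target TSC22D3 rose with dexamethasone, from 13.0 and 15.5 to 119 and 150 CPM (log2 fold change 3.23 ± 0.14 SE, adjusted p = 7.2e-07). The progesterone receptor PGR rose with estradiol, from 4.09 and 2.53 to 41.0 and 31.8 CPM (log2 fold change 3.46 ± 0.40, adjusted p = 0.00165). Dexamethasone replicate 1 had 8.91 CPM of PGR and 17.7 CPM of GREB1, another estrogen target, against 2.47 and 6.85 CPM in replicate 2. Adjusted p-values come from edgeR's quasi-likelihood test with Benjamini-Hochberg adjustment over all 14201 genes, unless another tool is named, and a gene was called at an adjusted p below 0.05.

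With both hormones active, the mitotic transcripts stayed within a narrow band across libraries. The highest library was under 1.2 times the lowest for 16 of the 40 genes and under 1.5 times for 35. The median of this ratio was 1.22 for the 40 genes and 1.304 for the 9554 tested genes with a mean above 10 CPM. The 2 sets were not matched for abundance, which affects this ratio. Mean CPM of the 40 genes had a median of 149 and a lowest value of 26.5. CENPE, CENPF, MKI67, CDC25C and UBE2S were the 5 genes at 1.5 or more. The mean log2 CPM of all 40 genes lay between 0.036 below and 0.056 above its average in every library. The heat map of log2 CPM shows the few departures, most of them in one library of a group rather than in both.

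**Figure D1:**
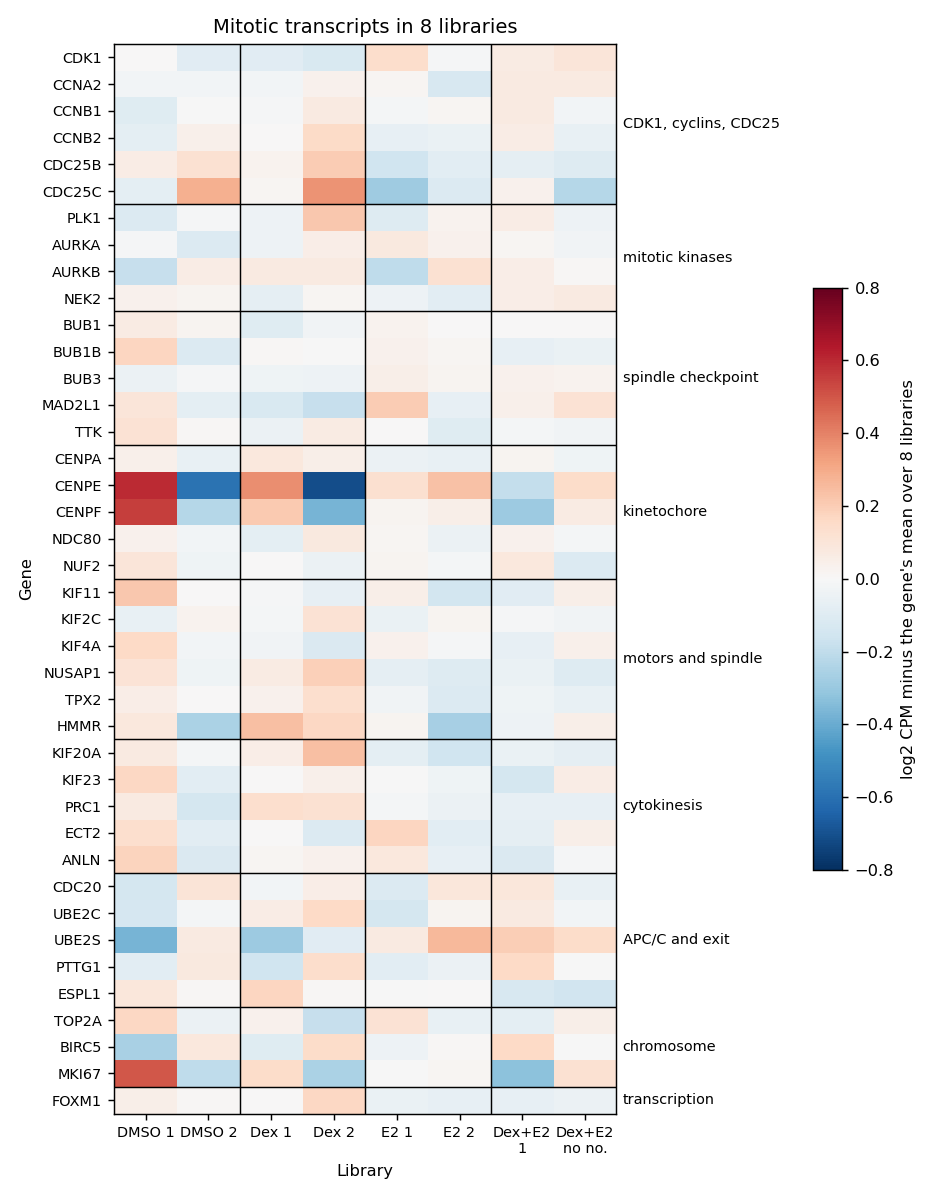
Heat map of 40 mitotic genes (rows, ordered by role) in 8 libraries (columns, 2 per group); color is log2 CPM minus the mean of that gene over the 8 libraries. CENPE, CENPF and MKI67 differ between libraries of one group, CDC25B is lower in the 4 libraries with estradiol, and most other cells are near 0.

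In dexamethasone against DMSO, edgeR called 0 of the 40 genes, compared with 0.965% of all genes tested. In estradiol against DMSO it called 0 of 40, compared with 1.8% of all genes, and in the combination against DMSO 0 of 40, compared with 2.19%. The combination against estradiol gave 0 of 40 (0.275% of all genes), the combination against dexamethasone 0 of 40 (2.67%), and the interaction of the hormones 0 of 40 (0.0211%). With shares of this size in all genes, a count of 0 among 40 says little by itself in these 6 contrasts, 3 of which share the DMSO libraries. Each hormone effect averaged over the absence and presence of the other used all 8 libraries. The average dexamethasone effect also gave 0 of 40 calls (1.07% of all genes), and the average estradiol effect gave 0 of 40 (5.8% of all genes). DESeq2 called 1 gene, UBE2S, in the average estradiol effect and 0 in the other 7 contrasts, and limma-voom called 0 in all 8.

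At an unadjusted p below 0.05, 0 of the 40 genes passed for dexamethasone against DMSO (9.84% of all genes) and 0 for its average effect (10.2%). Estradiol against DMSO had 1, CDC25B, and the combination against DMSO had 0 (11.4% and 10.8% of all genes). The combination against dexamethasone had 5 of 40, with UBE2S higher and ESPL1, KIF20A, CDC25B and NUSAP1 lower (16.7% of all genes). The combination against estradiol had 0 and the interaction 0 (6.37% and 5.16% of all genes). For the average estradiol effect 6 of 40 passed, with UBE2S and CDK1 higher and CDC25B, CDC25C, KIF20A and NUSAP1 lower, against 20.1% of all genes. The median log2 fold change of the 40 genes was 0.02 for the average dexamethasone effect and −0.03 for the average estradiol effect, beside 0.00 for all genes in both.

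A missed threshold does not show that a transcript stayed the same, so the width of the intervals matters. For each average hormone effect, the 95% interval of the fold change lay within 1.5-fold in either direction for 39 of the 40 genes, and CENPE was the exception. It lay within 2-fold for all 40 in both. For dexamethasone against DMSO the interval was within 1.5-fold for 37 genes, and for estradiol against DMSO for 35. The plot of effects and intervals shows how closely the genes cluster at 0 beside these bounds.

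**Figure D2:**
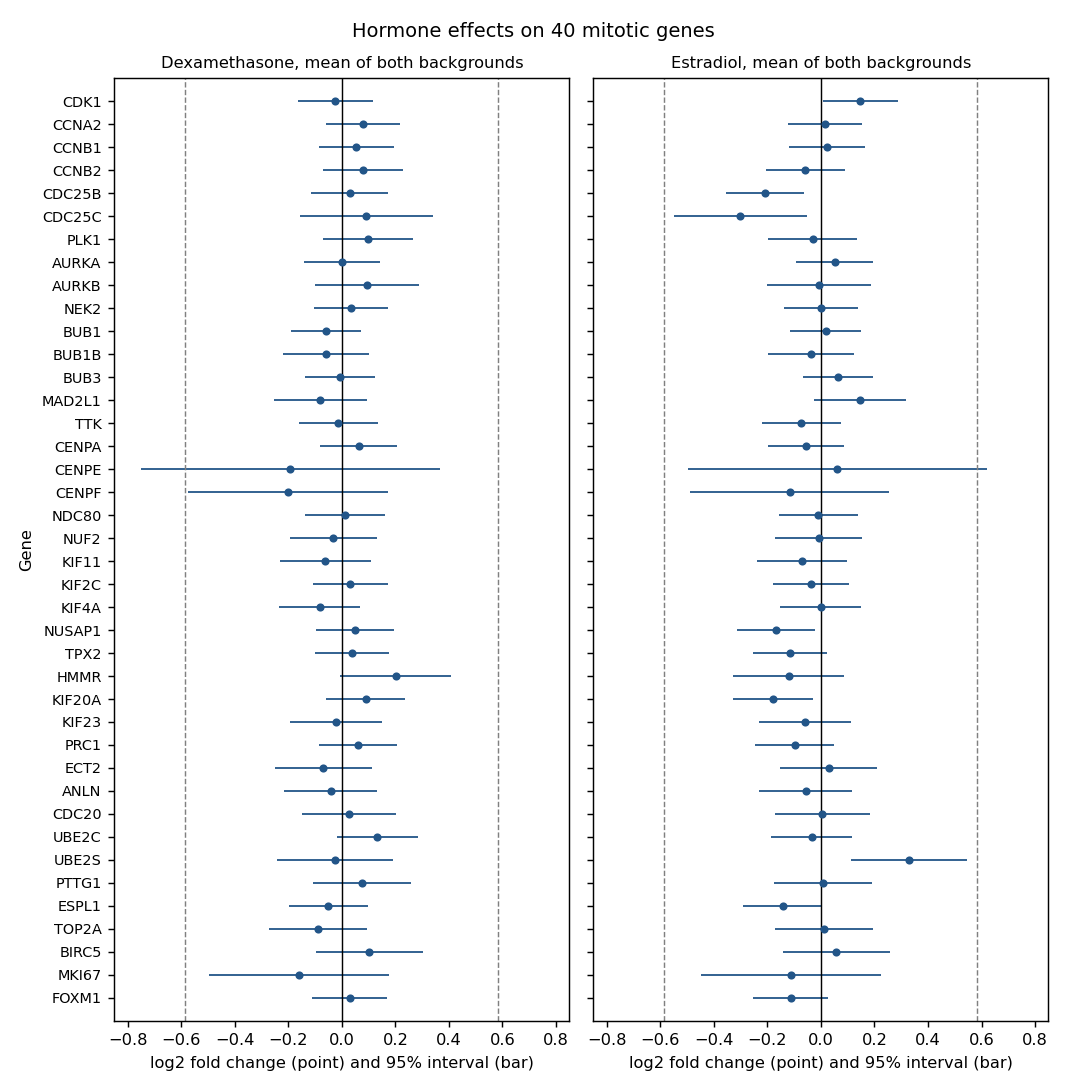
Log2 fold change (points) with 95% interval (bars) of 40 mitotic genes for dexamethasone (left) and estradiol (right), each averaged over the absence and presence of the other hormone; dashed lines mark 1.5-fold. Every interval but that of CENPE lies between the dashed lines, and UBE2S and CDC25C have the points farthest from 0 for estradiol.

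CDK1, its cyclins and the CDC25 phosphatases start mitosis. CCNB1, cyclin B1, was the most abundant of the 40 transcripts per kilobase of exon in DMSO (135 CPM per kb), and CDC25C was the least (8.50). CCNB1 stood at 334 and 356 CPM in DMSO, 355 and 376 with dexamethasone, 353 and 361 with estradiol, and 376 and 352 with both. These ranges overlapped throughout. CDC25B, which removes inhibitory phosphates from CDK1, was at 142 and 148 CPM in DMSO, 139 and 156 with dexamethasone, 122 and 128 with estradiol, and 129 and 127 with both. All 4 libraries with estradiol were below all 4 without it, by an average log2 fold change of −0.21 ± 0.07 SE, and the difference was not called (adjusted p = 0.101).

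CDC25C, a second activator of CDK1, was at 24.8 and 31.9 CPM in DMSO, 26.5 and 33.6 with dexamethasone, 21.5 and 24.2 with estradiol, and 26.8 and 22.4 with both. The libraries with estradiol tended to lie lower, but the 4 with and the 4 without it overlapped (average log2 fold change −0.30 ± 0.11, adjusted p = 0.167). CDK1 itself, the mitotic kinase, was at 159 and 149 CPM in DMSO, 149 and 146 with dexamethasone, 174 and 158 with estradiol, and 166 and 170 with both. It leaned the other way with estradiol, with a slight overlap of the 4 with and the 4 without it (0.15 ± 0.06, adjusted p = 0.228). CCNA2, cyclin A2, had the smallest p of these 6 genes for dexamethasone, with 186 and 187 CPM in DMSO, 186 and 193 with dexamethasone, 191 and 173 with estradiol, and 198 and 199 with both. Its average dexamethasone effect of 0.08 ± 0.06 was not called (adjusted p = 0.688). CCNB2, cyclin B2, ranged over 171 to 201 CPM in the 8 libraries.

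Among the mitotic kinases, PLK1, which acts from centrosome maturation to cytokinesis, was at 151 and 162 CPM in DMSO, 158 and 189 with dexamethasone, 151 and 166 with estradiol, and 169 and 158 with both. The high value was 1 dexamethasone library, and the average dexamethasone effect was 0.10 ± 0.08 (adjusted p = 0.679). AURKA, the spindle-pole kinase, was at 79.9 and 74.5 CPM in DMSO, 78.1 and 83.3 with dexamethasone, 84.8 and 82.2 with estradiol, and 81.3 and 78.9 with both. Both libraries with estradiol alone were above both DMSO and both combination libraries, but the 4 with and the 4 without estradiol overlapped, with an average effect of 0.05 ± 0.06 (adjusted p = 0.708). AURKB, the kinase of the chromosomal passenger complex, lay between 33.1 and 41.4 CPM, and the centrosomal kinase NEK2 between 66.1 and 73.6 CPM.

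The spindle checkpoint holds anaphase until every chromosome is attached. MAD2L1, the MAD2 protein of the checkpoint complex, was at 114 and 101 CPM in DMSO, 97.7 and 93.7 with dexamethasone, 122 and 102 with estradiol, and 109 and 115 with both. Both dexamethasone libraries were the lowest of the 8, but the combination was not, and neither average effect was called (−0.08 ± 0.08 for dexamethasone, adjusted p = 0.741, and 0.15 ± 0.08 for estradiol, adjusted p = 0.330). BUB3, which brings BUB1 and BUBR1 to kinetochores, lay above all 4 other libraries in the 4 with estradiol, although only between 249 and 265 CPM in all. BUB1 lay between 122 and 137 CPM, BUB1B, the gene of BUBR1, between 116 and 142, and the kinase TTK between 69.8 and 80.9.

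At the kinetochore, CENPA, the histone variant of the centromere, was at 53.5 and 50.0 CPM in DMSO, 55.3 and 53.9 with dexamethasone, 50.5 and 50.1 with estradiol, and 53.0 and 51.0 with both. Both libraries with dexamethasone alone were above the other 6, and the 4 with and the 4 without estradiol overlapped, with an average estradiol effect of −0.06 ± 0.07 (adjusted p = 0.681). NDC80 and NUF2, microtubule-binding partners in one complex, lay between 59.3 and 66.1 CPM and between 43.4 and 50.0 CPM. CENPF, a large kinetochore and nuclear matrix protein, was at 450 and 261 CPM in DMSO, 355 and 236 with dexamethasone, 311 and 316 with estradiol, and 250 and 320 with both. The replicates of DMSO, and those of dexamethasone, were farther apart than any 2 group means, and the average dexamethasone effect of −0.20 ± 0.17 was not called (adjusted p = 0.695).

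CENPE, a kinesin that moves chromosomes to the metaphase plate, was at 147 and 64.7 CPM in DMSO, 126 and 59.5 with dexamethasone, 106 and 115 with estradiol, and 85.3 and 108 with both. MKI67, the Ki-67 protein that coats mitotic chromosomes and serves as a proliferation marker, was at 884 and 545 CPM in DMSO, 694 and 526 with dexamethasone, 627 and 635 with estradiol, and 500 and 682 with both. Of the 40 genes it had the highest CPM (mean 636 over 8 libraries), and its average estradiol effect of −0.11 ± 0.15 was not called (adjusted p = 0.728). For CENPE, CENPF and MKI67 the spread within DMSO and within dexamethasone was wider than any difference between group means.

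These 3 genes have the longest exonic sequence of the 40, at 9444 bases for CENPE, 11690 for CENPF and 12807 for MKI67. Across the 40 genes, the log2 ratio of the first to the other library of a group went with log exonic length, with a Pearson r of 0.67 in DMSO, 0.61 with dexamethasone, 0.31 with estradiol and −0.74 in the combination. Without the 3 longest genes r was 0.49, 0.41, 0.48 and −0.56, and over 9210 genes above 10 CPM it was 0.38, 0.30, 0.33 and −0.38. All points of one group share the same 2 libraries, so these are descriptions. Long transcripts thus tended to be relatively more abundant in replicate 1 of DMSO, dexamethasone and estradiol, and in the combination library without a number. In estradiol the 3 longest genes did not follow this, with log2 ratios of −0.11 for CENPE, −0.023 for CENPF and −0.019 for MKI67. The part of length in the results was not tested. In DMSO 9 of the 40 genes were over 1.2-fold apart between the libraries, compared with 24.1% of the 9210 genes. With dexamethasone 5 of 40 were, compared with 18.1%, and with estradiol 3 of 40, compared with 15.5%. In the combination 3 of 40 were, compared with 6.23%.

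**Figure D3:**
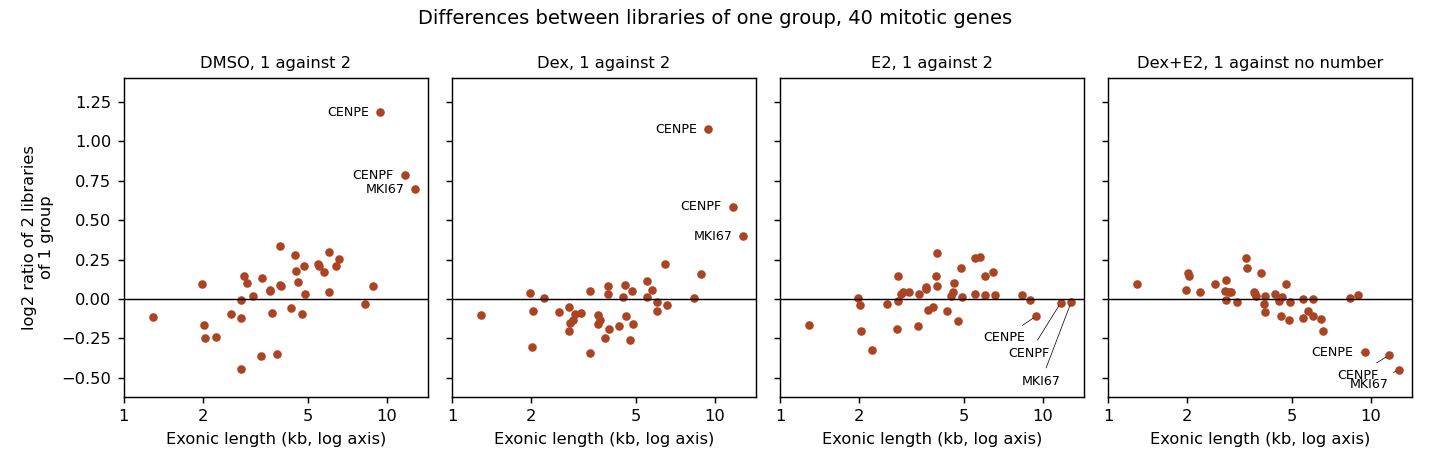
Log2 ratio of the 2 libraries of each group (vertical axis) against exonic length in kb (log axis) for 40 mitotic genes, 1 panel per group. Long genes lie high in DMSO and dexamethasone and low in the combination; in estradiol the ratio goes up with length except for the longest genes, with CENPE, CENPF and MKI67 named.

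Most of the hormone differences of the 3 long genes against DMSO changed sign with the libraries included. The dexamethasone log2 fold change of CENPE was −0.19 with all libraries, 0.52 without DMSO replicate 1 and 0.25 without dexamethasone replicate 2. That of CENPF was −0.27, 0.18 and 0.0016, and that of MKI67 −0.23, 0.16 and −0.037. Each dexamethasone library was nevertheless below the DMSO library of the same number for all 3 genes, a relation that leaving out a single library breaks. For estradiol, CENPF moved from −0.18 to 0.26 and MKI67 from −0.18 to 0.21 without DMSO replicate 1. CENPE for estradiol was 0.06 with all libraries and 0.77 without DMSO replicate 1, but −0.41 without DMSO replicate 2 and −0.0026 without estradiol replicate 2. The combination against DMSO gave −0.13 for CENPE, −0.32 for CENPF and −0.27 for MKI67, and 0.58, 0.13 and 0.12 without DMSO replicate 1, and CENPE was 0.027 without combination replicate 1. None of these values was called with or without a library.

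Spindle motors and assembly factors showed a similarly narrow range, apart from HMMR, whose highest library was 1.43 times its lowest. NUSAP1, which bundles microtubules near chromosomes, was at 201 and 182 CPM in DMSO, 194 and 212 with dexamethasone, 177 and 173 with estradiol, and 179 and 173 with both. Every library with estradiol was below every library without it, by −0.17 ± 0.07 on the log2 scale (adjusted p = 0.186). TPX2, which activates AURKA on the spindle, was split in the same way, from 276 to 291 CPM with estradiol and from 298 to 326 without. HMMR, a spindle-pole protein and hyaluronan receptor, was at 46.7 and 36.9 CPM in DMSO, 52.1 and 49.3 with dexamethasone, 44.7 and 36.6 with estradiol, and 42.8 and 45.4 with both. It was highest in the 2 libraries with dexamethasone alone, and its average dexamethasone effect of 0.20 ± 0.09 had the smallest p of the 40 genes (adjusted p = 0.504). The kinesins KIF11, KIF2C and KIF4A lay between 280 and 360, 134 and 151, and 114 and 137 CPM.

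For cytokinesis, KIF20A, a kinesin of the central spindle, was at 171 and 161 CPM in DMSO, 169 and 193 with dexamethasone, 154 and 146 with estradiol, and 157 and 155 with both. The 4 libraries with estradiol were again the lowest 4. Its average estradiol effect was −0.18 ± 0.07 (adjusted p = 0.168) and its average dexamethasone effect 0.09 ± 0.07 (adjusted p = 0.676). PRC1, which crosslinks midzone microtubules, lay between 148 and 179 CPM, KIF23 of centralspindlin between 87.0 and 108, the RhoA activator ECT2 between 201 and 245, and the ring scaffold ANLN between 212 and 260.

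The anaphase-promoting complex (APC/C) ends mitosis by marking securin and cyclins for destruction. UBE2S, the enzyme that extends ubiquitin chains on APC/C substrates, was at 138 and 188 CPM in DMSO, 146 and 168 with dexamethasone, 188 and 214 with estradiol, and 205 and 197 with both. The libraries with estradiol were higher, apart from DMSO replicate 2, which reached the lowest of them. The average estradiol effect was 0.33 ± 0.10 on the log2 scale, with a 95% interval of 0.11 to 0.55 (adjusted p = 0.0853). The call depended on the analysis, since UBE2S was called with DESeq2 (adjusted p = 0.0218), with no filter on low counts (adjusted p = 0.0184), and without DMSO replicate 2 (0.45, adjusted p = 0.00994). UBE2S shares a stretch of 669 bases at 98.8% identity with the pseudogene UBE2SP1, so its counts may be divided or lost between copies.

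UBE2C, which starts those ubiquitin chains, was at 119 and 128 CPM in DMSO, 135 and 145 with dexamethasone, 118 and 132 with estradiol, and 136 and 128 with both. Both libraries with dexamethasone alone were above both DMSO libraries, but the groups of the average effect overlapped (0.13 ± 0.07, adjusted p = 0.540). ESPL1, the separase that cuts cohesin, was lower in the 4 libraries with estradiol (68.2 to 76.3 CPM) than in the 4 without (76.5 to 85.7), with no gap to speak of between 76.3 and 76.5 CPM. CDC20, the activator of the APC/C, lay between 229 and 272 CPM, and PTTG1, securin, between 97.3 and 121.

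Of the chromosome-bound proteins besides MKI67, BIRC5, survivin of the passenger complex, was at 193 and 245 CPM in DMSO, 216 and 256 with dexamethasone, 225 and 232 with estradiol, and 258 and 231 with both. The DMSO libraries spanned nearly the whole range, and the average dexamethasone effect was 0.10 ± 0.09 (adjusted p = 0.711). TOP2A, which untangles sister chromatids, lay between 497 and 633 CPM. FOXM1, the transcription factor that switches on many of these genes, was at 269 and 263 CPM in DMSO, 262 and 293 with dexamethasone, 252 and 250 with estradiol, and 250 and 253 with both. Its 4 libraries with estradiol were tightly grouped below the other 4. The average effects were −0.11 ± 0.06 for estradiol (adjusted p = 0.354) and 0.03 ± 0.06 for dexamethasone (adjusted p = 0.886).

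Counted over the list, CDC25B, NUSAP1, TPX2, KIF20A, ESPL1 and FOXM1 had every estradiol library below every other library, 6 of 40 (15.0%) compared with 5.89% of all genes. BUB3 alone had every estradiol library above, 1 of 40 (2.5%) compared with 5.57%. For dexamethasone, 0 of 40 were separated upward and 0 downward, compared with 2.27% and 1.44% of all genes. The 40 genes and all genes were not matched for abundance, which can affect these shares. These genes share regulation and libraries, so the counts are not independent observations, and none of the 7 separated genes was called by edgeR, DESeq2 or limma-voom.

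Transcripts next to these genes in the cell cycle were examined through further lists. Of 71 other mitotic genes, 70 were tested, and edgeR called 0 in each of the 8 contrasts, with 0 to 4 at an unadjusted p below 0.05. The shares over all genes are those given above for each contrast, from 0.0211% to 5.8% called and from 5.16% to 20.1% at the unadjusted threshold. The 4 occurred for dexamethasone against DMSO, where all 4 were lower (9.84% of all genes), and again for its average effect (10.2%). In dexamethasone against DMSO, 52 of the 70 genes lay below 0 and 18 above. Their median log2 fold change was −0.07, beside 0.00 for all genes, and whether the list moved as a set was not tested. DESeq2 called 1 of these other mitotic genes, HMGB2, a chromatin protein, in the average estradiol effect (adjusted p = 0.0428). In all 8 contrasts limma-voom called 0. HMGB2 was named after its values were seen. Of 16 genes of the APC/C and its regulators, 0 were called by all 3 tools, with at most 3 at an unadjusted p below 0.05, in the average estradiol effect (20.1% of all genes). The same held for 36 genes of G1/S transition and DNA replication, with 0 called and at most 5, in the combination against dexamethasone (16.7% of all genes). The median log2 fold changes of these lists lay between −0.08 and 0.06 over the 8 contrasts.

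Some genes that restrain the cell cycle passed the test that no mitotic gene passed, although the 2 sets were not tested against each other. The list of restraining genes was chosen with earlier results of these data known, so its share of calls only describes the list. Of 15 such brakes, 4 rose in the average dexamethasone effect and 0 fell, compared with 1.0% of all genes called higher, and the median log2 fold change of the 15 was 0.10. The list was mixed: in dexamethasone against DMSO, 10 of the 15 lay above 0 and 5 below. At an unadjusted p below 0.05, 7 were higher and 1 lower there (9.84% of all genes). GADD45A had the lowest log2 fold change of the list, −0.53, and was not called. BTG2, an antiproliferative cofactor of mRNA deadenylation, was at 42.9 and 39.7 CPM in DMSO, 70.3 and 74.2 with dexamethasone, 29.9 and 28.6 with estradiol, and 52.3 and 50.2 with both. It rose in the average dexamethasone effect (0.81 ± 0.07, adjusted p = 0.000113) and fell in that of estradiol (−0.50 ± 0.07, adjusted p = 0.0017). CDKN1C, the CDK inhibitor p57, was at 14.4 and 21.7 CPM in DMSO, 52.8 and 63.4 with dexamethasone, 10.5 and 11.5 with estradiol, and 22.3 and 19.0 with both. It was far above all other libraries with dexamethasone alone, and it rose in the average dexamethasone effect (1.29 ± 0.13, adjusted p = 0.000364) and fell in that of estradiol (−1.10 ± 0.13, adjusted p = 0.000627).

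CDKN1A, the CDK inhibitor p21, was at 33.1 and 36.8 CPM in DMSO, 50.3 and 50.8 with dexamethasone, 36.7 and 36.8 with estradiol, and 64.8 and 61.9 with both. All 4 libraries with dexamethasone were above the other 4 (0.66 ± 0.07, adjusted p = 0.000544). GADD45G, a stress protein that binds CDK1 and cyclin B1, was at 3.94 and 3.70 CPM in DMSO, 7.70 and 6.96 with dexamethasone, 4.79 and 5.56 with estradiol, and 8.03 and 7.99 with both. It was low throughout and higher in every dexamethasone library (0.78 ± 0.11, adjusted p = 0.00601). These average effects kept their calls in all alternatives run.

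Some calls against DMSO alone were less firm, while others held. BTG2 and CDKN1C with dexamethasone, and CDKN1A and GADD45G with the combination, kept their calls against DMSO in all alternatives run. CDKN1A rose with dexamethasone alone (log2 fold change 0.53, adjusted p = 0.0283), but was not called when any library other than DMSO replicate 2 was left out (adjusted p up to 0.202). GADD45G rose as well (0.94, adjusted p = 0.0232), but not without DMSO replicate 1, DMSO replicate 2 or dexamethasone replicate 1 (up to 0.125). BTG2 fell with estradiol alone (−0.50, adjusted p = 0.0298), but was not called without either DMSO, either estradiol or either combination library (up to 0.221). Fitting only the 2 groups compared also ended these 3 calls, with adjusted p-values of 0.175 for CDKN1A, 0.132 for GADD45G and 0.0892 for BTG2. Of the 15 brakes, dexamethasone against DMSO called 4 higher (0.908% of all genes), estradiol against DMSO 1 lower (0.613%), and the combination against DMSO 2 higher (1.48%). In the average estradiol effect, BTG2 and CDKN1C were the 2 called lower (3.26% of all genes), with a list median of −0.05.

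**Figure D4:**
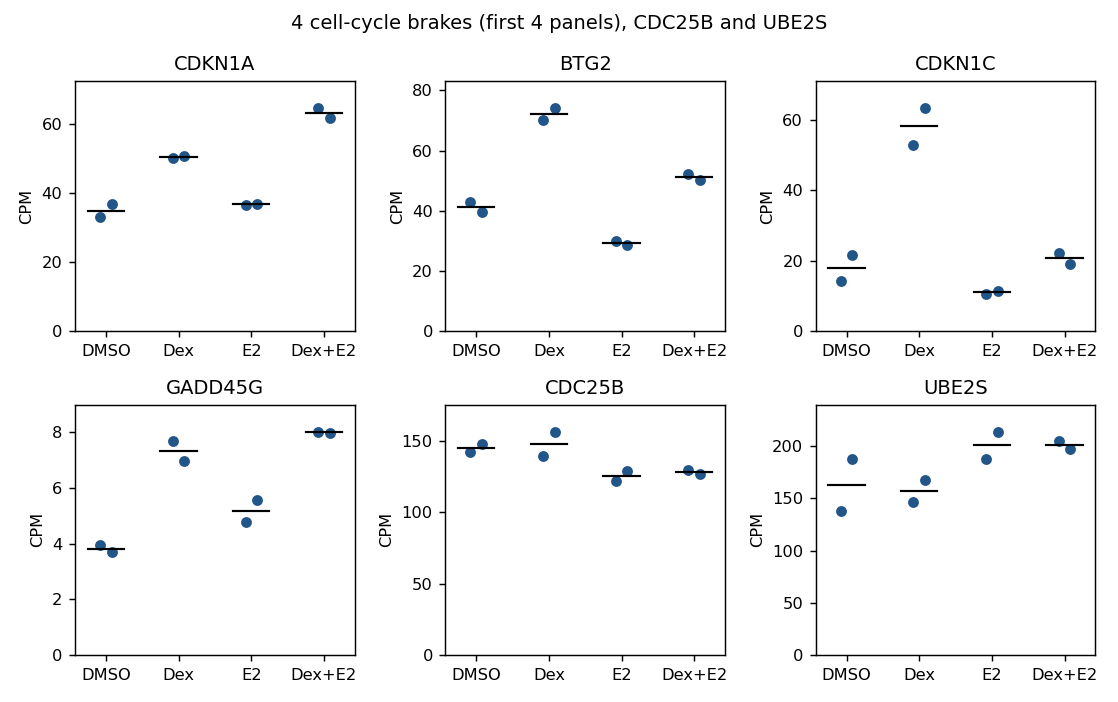
CPM in each library (points) with the group mean (lines) for the 4 cell-cycle brakes called in the average dexamethasone effect, and for CDC25B and UBE2S, 2 mitotic genes; 2 libraries per group, axes start at 0. The brakes are higher with dexamethasone than without it at the same estradiol state, but CDKN1C with both hormones overlaps DMSO. CDC25B and UBE2S differ by less, with CDC25B lower and UBE2S mostly higher in the estradiol libraries.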

How the data were processed

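Gene counts from 8 RNA-seq libraries of Ishikawa cells were used as deposited: the authors' table holds raw read counts per gene, and per the submitters' processing notes it involved HISAT2 2.0.4, Subread, featureCounts 1.5.1, DESeq2 1.14.1 and the hg19 build. For the gene annotation and strand setting nothing was given in the sources used here. A normalized version of the table was not used. Depth was 17846211 to 22487333 counts per library.

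Columns were matched to samples by name. Both combination columns carry the number 1, so one is treated as a library of that group without a number. Counts were filtered (filterByExpr), scaled (TMM) and fitted with edgeR 4.0.16 in R 4.3.3 in one quasi-likelihood model of 4 groups, with 4 residual degrees of freedom. Tests were two-sided, with Benjamini-Hochberg adjustment over 14201 genes. SE is the log2 fold change divided by the root of F. Fits were tested on simulated data. Of 50 simulated 1.5-fold changes, 58% were called for dexamethasone against DMSO and 56% for estradiol against DMSO. For the average effects 82% (dexamethasone) and 80% (estradiol) were called. False calls made up 20 of 192, 14 of 191, 12 of 202 and 17 of 207 calls in these comparisons, in the same order. Alternatives were RLE scaling, no filter, DESeq2 1.42.0, limma-voom (limma 3.58.1), fitting the compared groups alone, a replicate block and leaving out each library.

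The 40 genes and all lists were chosen with earlier results of these data known. Values in every library are given for called genes, for the smallest p per role in each average hormone effect, and for the most and least abundant genes; CDK1 and CENPE were added after their values were seen. Among other lists, up to 4 called genes with the smallest p are named. A further list, of regulators of cell-cycle transcription, is not reported here. Exonic lengths came from GENCODE on GRCh38, matched by symbol, and copies of at least 100 bases and 95% identity from blastn 2.17.0.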

Additional observations from a re-analysis of the deposited data

How the results depend on the processing

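In 7 of the 8 contrasts 0 of the 40 mitotic genes were called under every alternative; in the average estradiol effect 1 was called with no filter on low counts, 1 with DESeq2 and 0 to 1 with a library left out, each time UBE2S. The 26 uncalled values of named mitotic genes had the smallest p of their role in an average effect, or one below 0.05. Values chosen in this way are less apt to change sign. Of the 26, 3 changed sign with a library left out. Without DMSO replicate 1, MKI67 for estradiol gave 0.082 (−0.27 to 0.082 over the libraries) and CENPF for dexamethasone 0.022 (−0.37 to 0.022). Without dexamethasone replicate 2, FOXM1 for dexamethasone gave −0.0095 (−0.0095 to 0.069). Values outside the 26 also changed sign without DMSO replicate 1. The average estradiol effect of CENPF went from −0.12 to 0.11, and the average dexamethasone effect of CENPE from −0.19 to 0.16. For 42 called values of genes on other lists, 47 of the refits with a library left out lost the call and 289 kept it; the other alternatives lost 4 and kept 202.

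Counts over all genes varied more. With no filter they were 253 for dexamethasone against DMSO, 442 for estradiol, 132 for the combination against estradiol, 658 for the combination against dexamethasone, 32 for the interaction and 295 for the average dexamethasone effect. DESeq2 called 68 for the combination against estradiol and 13 for the interaction. Fitting the compared groups alone gave 63 for dexamethasone and 151 for the combination against estradiol. With a library left out, counts ranged from 78 to 127 for dexamethasone, 58 to 298 for estradiol, 157 to 325 for the combination against DMSO, 10 to 68 for the combination against estradiol, 89 to 488 for the combination against dexamethasone, 1 to 10 for the interaction, 82 to 183 for the average dexamethasone effect and 422 to 904 for the average estradiol effect.

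The replicate block was fitted to 6 libraries in 3 groups, because 1 combination library has no number, and it was not run for the combination. It called 239 genes for dexamethasone and 441 for estradiol, and 0 mitotic genes in either. For dexamethasone it gave −0.18 for CENPE, −0.25 for CENPF and −0.21 for MKI67, and for estradiol 0.21, −0.12 and −0.13. Deviations of same-numbered libraries correlated at 0.243 (DMSO and dexamethasone), 0.153 (DMSO and estradiol) and 0.0493 (dexamethasone and estradiol) over all genes. Over the 40 mitotic genes they correlated at 0.884, 0.346 and 0.110. These include CENPE, CENPF and MKI67, with log2 ratios of replicate 1 to 2 of 1.19, 0.79 and 0.70 in DMSO. With dexamethasone their ratios were 1.08, 0.59 and 0.40. The correlation without these 3 genes was not computed, and the labels name no shared origin. At 381 or more counts per mitotic gene and library, the precision is limited by having 2 libraries a group, and counts of close copies such as AURKA and AURKAP1, CDC20 and CDC20P1 or KIF4A and KIF4B may be divided between genes.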

Other observations

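KIFC1, a minus-end mitotic kinesin on the list of other mitotic genes, did not pass the filter on low counts. It had 30 counts in estradiol replicate 1 and 0 or 1 in each of the other 7 libraries. The choice of KIFC1 followed from its values.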
